A study of Mus musculus with 50 samples.

Results

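Class 3 semaphorins are secreted guidance proteins and the neuropilins are receptors that bind them. The genes described here are Sema3a, Sema3b, Sema3c, Sema3d, Sema3e and Sema3f together with Nrp1 and Nrp2, which is 8 of the 24391 genes listed in the RNA count tables. They were chosen by name, because Sema3a and Sema3c were known to be among the highest ratios of RepB to wild-type MEF. That contrast, its allele reads and the levels of both MEF libraries are therefore given for these genes only as a description, without a test. The tests of the 8 genes are those between genotypes of differentiated ES cells, whose values the rule of choice did not use. Earlier results of these data were, however, known when the members, lists and tests were chosen. Sema3g, the remaining class 3 gene, was counted with the other semaphorins.

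Poly(A) RNA was sequenced in mouse cells of a CAST/Ei x 129/Sv/Jae background, in which reads that cover a strain variant can be given to the CAST or the 129 allele. Differentiated ES cells, which had spent 4 days as embryoid bodies and 10 days plated after removal from feeder fibroblasts, were wild type, RepB+/- or RepB-/- for Repeat B, a tandem repeat within the X-inactivation RNA Xist. Each ES genotype had 2 libraries. Mouse embryonic fibroblasts (MEF) were wild type or had lost Repeat B (RepB), with 1 library each, and the labels give no zygosity, so a difference between them has no replicate check. The labels do not say whether the ES libraries came from separate cultures, so p-values measure the spread between libraries, which may be technical. Of the 50 samples in the series, the 42 others were not analysed here.

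Library totals ran from 8000722 to 28045645 counts, and between 26.7% and 28.0% of counts had an allele. Xist itself was counted at 771 to 1101 CPM in the 6 ES libraries, at 477 CPM in wild-type MEF and at 567 CPM in RepB MEF; gene totals do not check the loss of a repeat inside the gene. CPM is a gene's count scaled to the size of its library, here after edgeR's TMM correction of library sizes. All 12 fibroblast markers of the fixed list reached 1 CPM in each ES library, with a summed level of 30640 and 37842 CPM in wild type and of 23783 to 40877 CPM in the RepB libraries. In wild-type MEF 11 of the 12 reached 1 CPM (sum 66158 CPM), and in RepB MEF 9 did (sum 49723 CPM). Thy1, a surface glycoprotein of fibroblasts, went from 117 counts in wild-type MEF to 0 counts in RepB MEF. Lum, a collagen-binding proteoglycan, went from 5 counts to 0 and was below 1 CPM already in wild-type MEF (0.486 CPM). Most other markers read singly were also lower in RepB MEF. Pdgfra was at 195 CPM in wild-type and 120 CPM in RepB MEF, and Col1a1 at 25212.5 and 20417.8 CPM. Vim was at 6097 and 4970 CPM, and Col1a2 at 13594 and 12309 CPM. Postn alone of those read went the other way, at 87.5 and 96.4 CPM. Col3a1, Pdgfrb, Fn1 and S100a4 were read only as part of the sum. Dcn, near the floor, was at 3.59 and 0.289 CPM. Endothelial, epithelial, cardiac, endodermal and pluripotency markers were all below 1 CPM in both MEF libraries. These are bulk samples, in which fewer cells of a type and less RNA per cell cannot be told apart.

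A secreted class 3 semaphorin generally binds a neuropilin, which has a short cytoplasmic tail and passes the signal on through a plexin of the A or D type. The plexin then acts on small GTPases, collapsin response mediator proteins and MICAL enzymes, and the usual outcome is loss of adhesion and retraction of the cell edge or growth cone. Sema3e is the exception that can bind Plxnd1 without a neuropilin, and both neuropilins also bind forms of the growth factor VEGF. Fibroblasts and other mesenchymal cells are a common source of these ligands during development, when they steer axons, vessels and neural crest cells.

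The promoters of Sema3a, Sema3c and Sema3d are shown because these genes had the most extreme MEF ratios of the set. Each is the RefSeq sequence on GRCm38.p6 from 250 bases before to 50 bases after the start, on the plus strand of chromosome 5, at chr5:13396534-13396833, chr5:17574566-17574865 and chr5:12382916-12383215 in that order. Capitals mark CG dinucleotides.
Sema3a: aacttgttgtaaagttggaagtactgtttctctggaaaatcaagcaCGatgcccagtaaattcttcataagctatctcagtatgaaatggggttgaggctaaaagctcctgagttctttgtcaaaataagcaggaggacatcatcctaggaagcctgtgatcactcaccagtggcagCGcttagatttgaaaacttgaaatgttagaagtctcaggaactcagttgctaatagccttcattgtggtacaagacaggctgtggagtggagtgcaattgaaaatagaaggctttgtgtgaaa
Sema3c: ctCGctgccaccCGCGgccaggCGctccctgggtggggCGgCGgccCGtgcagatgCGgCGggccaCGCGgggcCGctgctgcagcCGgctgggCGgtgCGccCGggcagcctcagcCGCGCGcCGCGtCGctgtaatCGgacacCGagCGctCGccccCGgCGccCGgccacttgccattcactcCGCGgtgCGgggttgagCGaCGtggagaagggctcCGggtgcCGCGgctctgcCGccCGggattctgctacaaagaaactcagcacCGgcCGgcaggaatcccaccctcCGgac
Sema3d: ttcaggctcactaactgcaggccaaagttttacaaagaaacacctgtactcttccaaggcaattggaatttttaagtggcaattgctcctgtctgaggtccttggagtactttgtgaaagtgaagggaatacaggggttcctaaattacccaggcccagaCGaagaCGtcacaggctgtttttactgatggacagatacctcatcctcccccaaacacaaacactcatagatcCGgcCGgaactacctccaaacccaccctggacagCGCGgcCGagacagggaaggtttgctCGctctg
The promoter windows of Sema3a and Sema3c differ widely in CG content. Whether these RefSeq starts are the ones used in the MEF libraries was not tested. The Sema3a window holds 2 CG dinucleotides at 41.3% GC, a count that 85.9% of all 32851 RefSeq promoters reach or exceed, while the Sema3c window holds 42 at 75.7% GC, which 3.03% of promoters match or exceed. Sema3d lay between them with 8 CG dinucleotides at 49.7% GC, close to the medians over all promoters of 7 and 52.7%. Of the remaining members, Nrp2 had 37 CG dinucleotides, Nrp1 had 14 and Sema3e had 11; Sema3b and Sema3f had no entry in the table. On both strands, GGGCGG was found in 4 of the 6 member promoters (Nrp1, Nrp2, Sema3c and Sema3e) and in 35.7% of all promoters. CACGTG was found in Sema3e alone of the 6 and in 7.15% of all promoters. TATAAA, TGACGTCA and TGANTCA, which occur in 13.6%, 1.79% and 7.81% of all promoters, were in none of the 6 windows. These matches describe letters in the windows, not bound sites.

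Per length, Nrp1 was the most abundant of the 8 transcripts in differentiated ES cells and Sema3f in fibroblasts. In wild-type ES cells Nrp1 stood at 155 CPM per kb of listed exon, followed by Sema3f at 41.6, Nrp2 at 22.6, Sema3b at 13.3, Sema3e at 8.41, Sema3c at 4.93, Sema3a at 1.13 and Sema3d at 0.830 CPM per kb (means, n = 2). No neighbours in that order overlapped between libraries. In RepB+/- and RepB-/- cells Sema3e stood above Sema3b, and Sema3a and Sema3d, the lowest pair, overlapped. In wild-type MEF the order by CPM per kb was Sema3f at 179, Nrp2 at 17.6, Nrp1 at 16.8, Sema3b at 6.52, Sema3a at 4.98, Sema3e at 4.76, Sema3d at 3.51 and Sema3c at 1.59. In RepB MEF it was Sema3f at 143, Sema3a at 23.2, Nrp2 at 14.5, Sema3b at 13.7, Nrp1 at 8.83, Sema3c at 7.68, Sema3e at 2.01 and Sema3d at 0.754 CPM per kb. Sema3a thus stood below Sema3b in the wild-type fibroblast library and next to Sema3f in the RepB library, while Sema3d ended last. With 1 library each, neighbours in the MEF orders have no spread to compare.

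**Figure D1:**
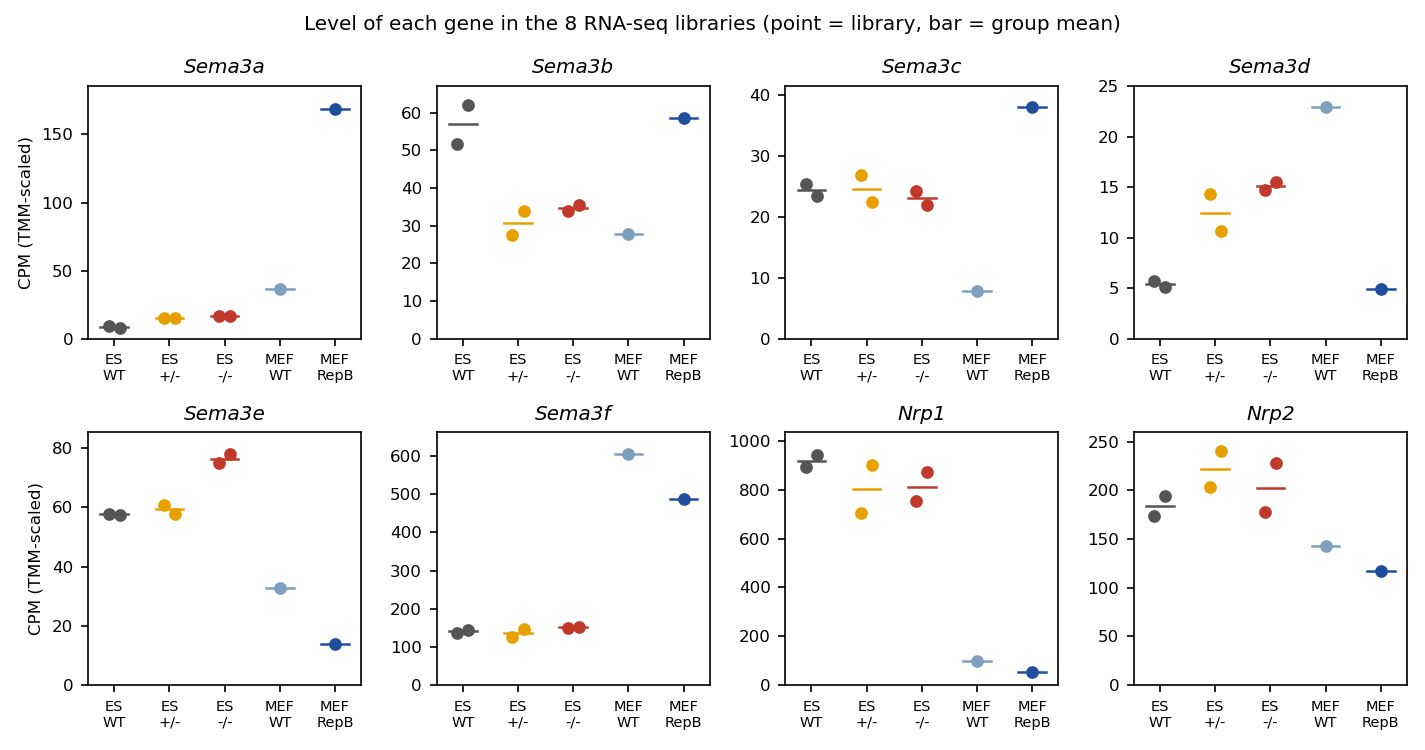
Level of each of the 8 genes in every library (CPM after TMM scaling, axes from 0), 1 panel per gene, with 2 points for each ES genotype and 1 point for each MEF library; short lines mark group means. Sema3a and Sema3d sit low in wild-type ES cells and higher in both RepB genotypes, Sema3b the other way, and Sema3c holds nearly the same level in all 6 ES libraries.

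Between wild-type fibroblasts and wild-type differentiated ES cells the 8 genes differed in both directions. These values are a description without a test, because the one wild-type MEF library is also the denominator of the ratio that chose the set and has no replicate. Sema3f, which binds Nrp2 and repels many cell types, had a log2 difference of MEF over ES cells of 2.12, Sema3a, the ligand that collapses growth cones through Nrp1, one of 2.14, and Sema3d, a ligand with roles in heart and vessel development, one of 2.09. Nrp1 had the largest difference in size, -3.19. For Sema3c, a ligand needed for the cardiac outflow tract, the difference was -1.62, for Sema3b -1.01, for Sema3e -0.81 and for Nrp2, the receptor of Sema3f, -0.34. The median over all 15692 genes compared was -0.22.

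In fibroblasts the family did not share the high RepB to wild-type ratio of Sema3a and Sema3c. Sema3a was counted at 36.3 CPM in wild-type and 169 CPM in RepB MEF, and Sema3c at 7.87 and 38.1 CPM. Those levels come from 374 and 2917 reads for Sema3a, a ratio of 4.64 (95% Clopper-Pearson interval 4.16 to 5.18), and from 81 and 658 reads for Sema3c, a ratio of 4.83 (3.83 to 6.16). These intervals cover counting error only, since no molecular identifiers are stated, and the ratios were scaled by TMM over the MEF libraries alone. Sema3c ranked 28 and Sema3a 32 from the top among 11680 genes averaging at least 1 CPM. Sema3b, a ligand first known as a candidate tumour suppressor, came next in the family with 27.8 and 58.5 CPM, 286 and 1012 reads and a ratio of 2.10 (1.84 to 2.41).

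The other 5 genes were lower in RepB MEF or within 2-fold. Sema3d went from 22.9 CPM (236 reads) in wild-type to 4.92 CPM (85 reads) in RepB MEF, so that wild type was 4.67 times higher (3.63 to 6.06). Sema3e, the ligand of Plxnd1 in vessel patterning, went from 32.6 CPM (336 reads) to 13.8 CPM (238 reads), 2.37 times higher in wild type (2.01 to 2.82). Nrp1 stood at 99.5 and 52.3 CPM (1025 and 904 reads), just inside 2-fold, with wild type 1.91 times higher (1.74 to 2.09). Of the 8 genes it was the nearest below the 2-fold line and Sema3b the nearest above it. The most abundant ligand and the second receptor differed least. Sema3f was at 607 and 487 CPM (ratio 0.801, 0.775 to 0.828) and Nrp2 at 143 and 117 CPM (ratio 0.818, 0.765 to 0.875).

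All 8 genes averaged at least 1 CPM in MEF. At 2-fold, 3 were higher and 2 lower in RepB MEF, where 3.33% of the 11680 genes were higher and 6.47% lower. At 4-fold, 2 were higher and 1 lower, beside 0.402% and 2.7% of all genes. These shares are printed as background only, because this contrast chose the set. The log2 ratios (prior count 2) ran from -2.19 for Sema3d to 2.25 for Sema3c with a median of -0.30, and the median over all genes was 0.03. Fibroblast marker levels also differed between the MEF libraries, as given above. So did the sum of smooth muscle markers, 4 of 6 at 1 CPM or more (7366 CPM in wild type and 4618 CPM in RepB). Neuronal markers summed to 207 and 118 CPM, from 4 of 10 at 1 CPM or more in wild type and 2 in RepB. Dcx, Elavl3, Elavl4, Snap25 and Rbfox3 had no read in either MEF library. Blood and macrophage markers summed to 27.0 and 17.6 CPM, with 3 of 7 at 1 CPM or more and Ptprc, Spi1 and Itgam without a read. The part of these markers in the ratios was not tested.

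**Figure D2:**
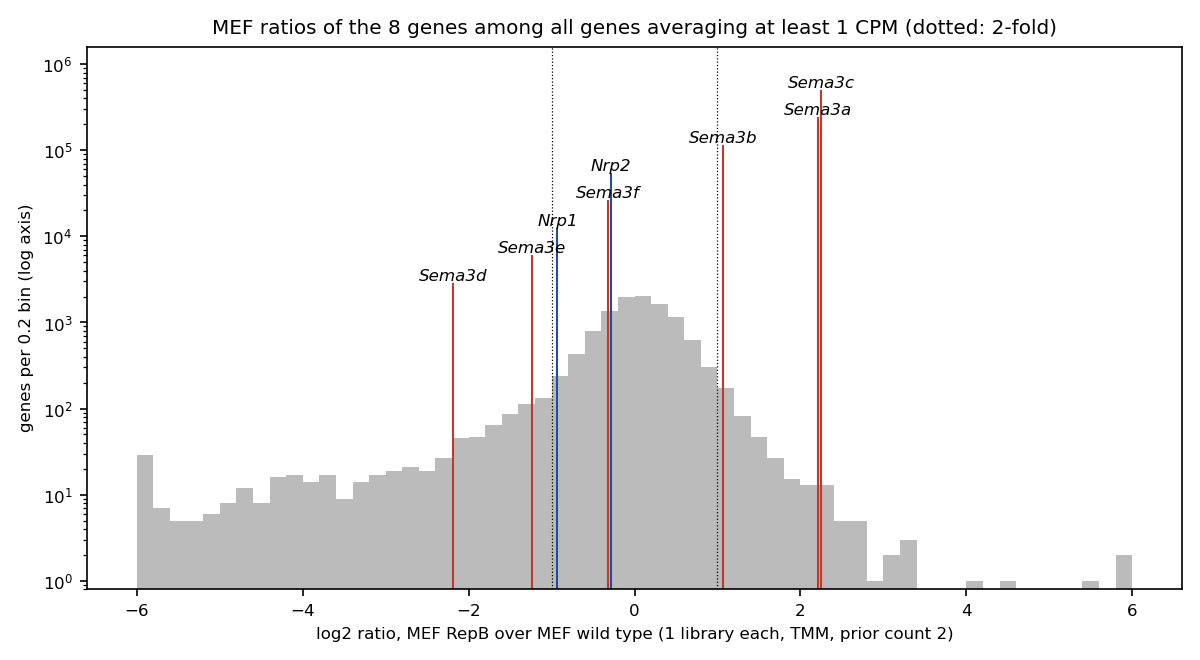
Histogram of log2 ratios of RepB over wild-type MEF for the 11680 genes averaging at least 1 CPM (grey, genes per bin on a log axis; the 28 genes beyond 6 in either direction are in the end bins), with a vertical line for each of the 8 genes and dotted lines at 2-fold. Sema3a and Sema3c lie together at 2.21 and 2.25 and Sema3d lies on the opposite side at -2.19.

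In differentiated ES cells, Sema3a and Sema3d rose and Sema3b fell in both RepB+/- and RepB-/- cells, and Sema3e rose as well in RepB-/- cells. Sema3c, Sema3f and the neuropilins were not called in the main fit. Sema3a was at 8.87 and 7.66 CPM in the wild-type libraries, at 15.4 and 15.4 CPM in RepB+/- and at 16.7 and 16.7 CPM in RepB-/-. Every RepB library was above both wild-type ones. The log2 fold change of Sema3a was 0.90 in RepB+/- (SE 0.16, edgeR adjusted p = 0.00178) and 1.01 in RepB-/- (SE 0.16, adjusted p = 0.000589). Sema3d, at 5.68 and 5.14 CPM in wild type, was at 14.3 and 10.6 CPM in RepB+/- and at 14.7 and 15.5 CPM in RepB-/-. Its groups also lay apart, with log2 fold changes of 1.25 (SE 0.19, adjusted p = 0.00053) and 1.47 (SE 0.18, adjusted p = 0.000117), the largest of the 8.

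Sema3b moved the opposite way. It was counted at 51.5 and 62.1 CPM in wild type, at 27.4 and 33.8 CPM in RepB+/- and at 33.8 and 35.5 CPM in RepB-/-, with no overlap of wild type and either genotype. The log2 fold changes were -0.90 (SE 0.13, edgeR adjusted p = 0.000414) and -0.71 (SE 0.13, adjusted p = 0.00206). Leaving out wild-type replicate 2, the higher of the pair, the RepB-/- change of Sema3b was -0.57 with an adjusted p of 0.0501. Sema3e was at 57.9 and 57.6 CPM in wild type, at 60.8 and 57.8 CPM in RepB+/- and at 74.9 and 78.1 CPM in RepB-/-. It rose in RepB-/- by 0.41 (SE 0.10, adjusted p = 0.0149), and in RepB+/- its change of 0.05 (SE 0.10) had an adjusted p of 0.764. That RepB-/- call did not hold when wild-type replicate 1 (adjusted p = 0.106), wild-type replicate 2 (adjusted p = 0.122) or RepB-/- replicate 2 (adjusted p = 0.0996) was dropped.

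Sema3c, level with Sema3a in fibroblasts by ratio, showed no such difference in ES cells. Its levels were 25.5 and 23.4 CPM in wild type, 26.9 and 22.4 CPM in RepB+/- and 24.3 and 22.0 CPM in RepB-/-, all within a narrow band. The log2 fold changes were 0.04 (SE 0.14, edgeR adjusted p = 0.871) and -0.08 (SE 0.13, adjusted p = 0.76). Sema3f was at 137 and 145 CPM in wild type, at 125 and 146 CPM in RepB+/- and at 149 and 153 CPM in RepB-/-, with log2 fold changes of -0.05 (SE 0.11, adjusted p = 0.788) and 0.10 (SE 0.11, adjusted p = 0.589).

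Of the receptors, Nrp1 was at 896 and 942 CPM in wild type, at 707 and 903 CPM in RepB+/- and at 753 and 875 CPM in RepB-/-. Its highest RepB+/- library lay between the wild-type ones, and the log2 fold changes of -0.18 (SE 0.15, edgeR adjusted p = 0.451) and -0.17 (SE 0.15, adjusted p = 0.504) were about the size of their errors. Nrp2 was at 173 and 194 CPM in wild type, at 204 and 241 CPM in RepB+/- and at 177 and 228 CPM in RepB-/-. Both RepB+/- libraries were above wild type and the RepB-/- ones overlapped it, with log2 fold changes of 0.28 (SE 0.14, adjusted p = 0.165) and 0.15 (SE 0.13, adjusted p = 0.516). In an alternative edgeR fit with replicate number as a block, the RepB+/- change of Nrp2 was called (0.28, adjusted p = 0.0304).

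Across the 15149 genes tested by edgeR in ES cells, 9.12% were called up and 6.84% down in RepB+/-, beside 2 members up and 1 down, and 7.27% up and 5.49% down in RepB-/-, beside 3 members up and 1 down. Groups did not overlap for 4 of 8 members in RepB+/- (58.7% of all genes) and for 6 of 8 in RepB-/- (59.6%). The members' median log2 fold changes were 0.05 and 0.12, against 0.02 and 0.01 over all genes. Both comparisons use the same wild-type libraries. Between RepB-/- and RepB+/- directly, 0 of 8 members were called by edgeR or by DESeq2, and edgeR called 0.0198% of genes up and 0.066% down. Groups did not overlap there for 5 of 8 members, beside 33.7% of all genes. The one member with an unadjusted p under 0.05 was Sema3e, at 0.36 (SE 0.10, unadjusted p = 0.00314, edgeR adjusted p = 0.358).

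**Figure D3:**
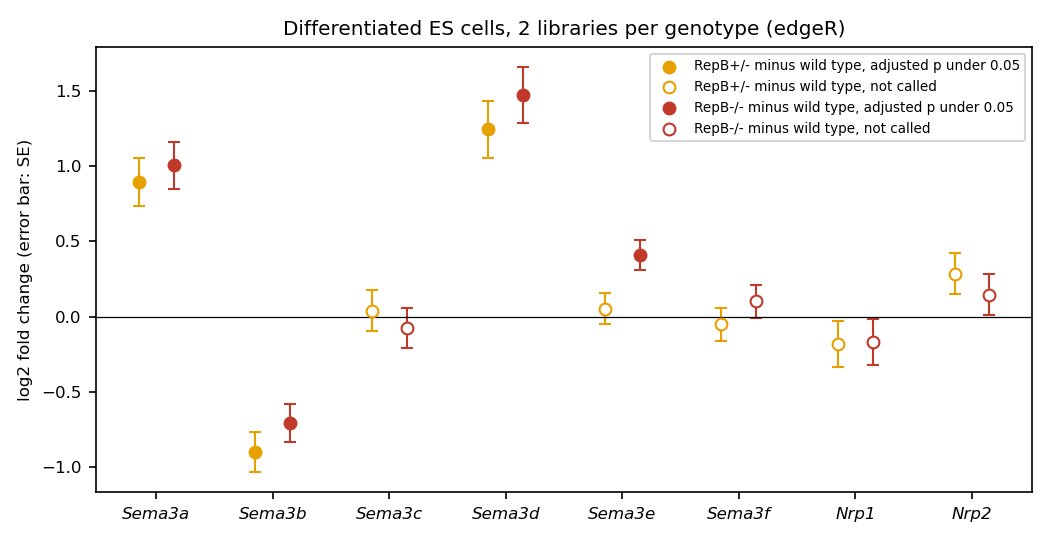
edgeR log2 fold change of each of the 8 genes against wild-type ES cells, for RepB+/- and RepB-/- (points, with bars of 1 SE; n = 2 libraries per genotype), filled where the adjusted p was under 0.05. Sema3a and Sema3d lie above 0 and Sema3b below 0 in both genotypes, with Sema3e called in RepB-/- only as far as these tests go.

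Summed markers of several other cell types differed between genotypes in the same ES libraries. Single genes whose groups lay apart from wild type made up 58.7% of all genes in RepB+/- and 59.6% in RepB-/-. Summed pluripotency markers (6 of 6 at 1 CPM or more in every ES library) were at 138 and 162 CPM in wild type and at 341 to 537 CPM in the 4 RepB libraries. Endoderm markers (5 or 6 of 6) summed to 227 and 229 CPM in wild type and to 444 to 636 CPM in RepB, and blood and macrophage markers (7 of 7) to 127 and 133 CPM against 167 to 238 CPM. Lower in RepB were the sums of cardiac muscle markers (7 of 8), at 438 and 493 CPM against 150 to 226 CPM, epithelial markers (6 or 7 of 7), at 1450 and 1562 CPM against 866 to 1084 CPM, and smooth muscle markers (6 of 6), at 4178 and 4422 CPM against 3114 to 3948 CPM. The sums of endothelial markers (244 and 269 CPM against 225 to 290 CPM) overlapped between wild type and RepB. So did those of glial and neural crest markers (38.0 and 44.3 CPM against 37.6 to 45.9 CPM) and of fibroblast markers. Neuronal markers (86.5 and 91.3 CPM against 74.2 to 85.5 CPM) lay just apart. Single fibroblast markers differed both ways under their overlapping sum. Dcn was at 210 and 165 CPM in wild type and at 314 to 378 CPM in RepB. Postn was at 938 and 1004 CPM in wild type and at 508 to 603 CPM in RepB. Whether cell numbers differed, and what part this had in the changes of Sema3a, Sema3b, Sema3d and Sema3e, was not tested.

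The set falls into a chromosome 5 group and scattered genes. In the mm9 positions of 1 exon each, Sema3d (12383166), Sema3a (13396784) and Sema3e (14025276) follow each other on chromosome 5 with Sema3c further on (17080634), Sema3b (107500005) and Sema3f (107583833) lie close together on chromosome 9, and Nrp2 (62749891) and Nrp1 (130882973) are on chromosomes 1 and 8. Within 1 Mb of Sema3d, Sema3a and Sema3e the tables list 9 other genes, and none of the 9 had a read in either MEF library. The MEF log2 ratios of these adjacent ligands, in the contrast that chose the set, were -2.19, 2.21 and -1.24. Of 4 neighbours of Sema3c, Gnai1, an inhibitory G protein subunit, was the one reaching 1 CPM in MEF, with 236 wild-type and 88 RepB reads and a log2 ratio of -2.14, opposite to Sema3c. Near Sema3b and Sema3f, 50 of 71 neighbours reached 1 CPM, 0 were 2-fold higher and 4 were 2-fold lower in RepB MEF, with a median log2 ratio of -0.07. Those with at least 50 reads ran from -1.66 for Bsn, a presynaptic scaffold gene, to 0.85 for 4930447F24Rik, and Sema3b at 1.07 lay above them. In ES cells 60 of the 71 were tested, and 0 rose while 7 fell in RepB+/- and 4 in RepB-/- (over all genes 9.12% rose and 6.84% fell, and 7.27% rose and 5.49% fell). For Nrp1, Itgb1, an integrin subunit, had a MEF log2 ratio of 0.04. For Nrp2, 5 of 11 neighbours reached 1 CPM, from -3.10 for Adam23 (57 and 9 reads) to 0.25 for Ndufs1, a subunit of respiratory complex I. In the RefSeq annotation on GRCm38.p6, Sema3c, Sema3e and Sema3f overlap no other gene, whereas Sema3a overlaps Gm52804, Sema3b Lsmem2, Sema3d Gm8925, Nrp1 Mir1903 and Gm32643, and Nrp2 Gm29083 and 4930487H11Rik; the strand setting of the counting is not given in the sources used here, so reads of such pairs may be shared.

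Reads with an allele were almost all given to 129 in ES cells for 6 of the 8 genes. The share of 129 reads was 94.6% to 100% for Sema3a over the 6 ES libraries, 98.9% to 100% for Sema3c, 98.3% to 100% for Sema3d, 97.1% to 98.8% for Sema3e, 99.4% to 99.6% for Nrp1 and 93.5% to 97.4% for Nrp2. For Sema3d in wild-type replicate 2 this rests on 14 reads. Sema3b (45.6% to 56.7%) and Sema3f (40.5% to 44.6%) drew on both alleles. For Nrp2 the chromosome did the same, since the median share over chromosome 1 genes was 99.6% to 100%. There, 2.54% to 3.85% of genes had a share between 20% and 80%. On chromosome 5 the medians were 52.3% to 53.5%, and 75.7% to 77.0% of genes had a share between 20% and 80%, so the 4 ligands there differed from most genes of their chromosome but not from their surroundings as far as these could be read. The 1 or 2 neighbours of Sema3c with at least 20 allelic reads had median shares of 98.4% to 100% in the 6 ES libraries, and around Sema3d, Sema3a and Sema3e 1 neighbour in 1 library had enough reads, at 100%. On chromosome 8 the medians were 42.7% to 47.5%, while Itgb1, the readable neighbour of Nrp1, had shares of 99.0% to 99.6%, like Nrp1 itself. Such shares do not show that a CAST copy of these genes was silent. Whether the ES cells carry CAST sequence in these regions was not tested.

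**Figure D4:**
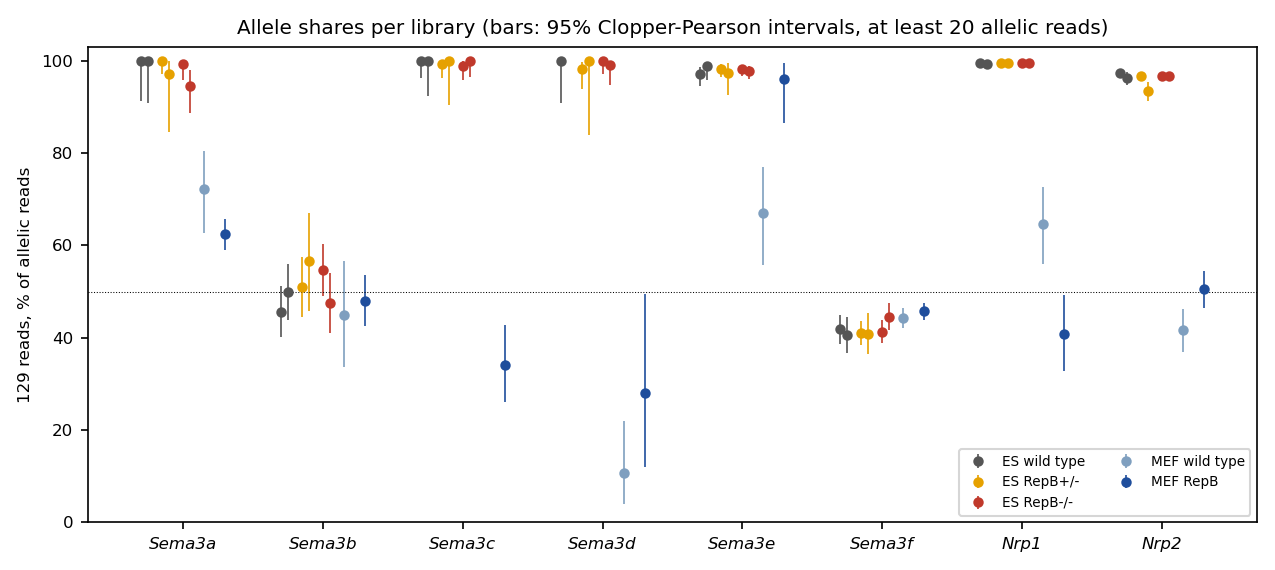
Share of 129 reads among reads with an allele for each of the 8 genes in every library with at least 20 such reads (percent, bars are 95% Clopper-Pearson intervals). In ES cells Sema3a, Sema3c, Sema3d, Sema3e, Nrp1 and Nrp2 lie near 100% and Sema3b and Sema3f near the middle, and in MEF all but Sema3e in the RepB library lie between 10.7% and 72.2%.

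In MEF every gene with at least 20 allelic reads had reads from both alleles, so each ratio could be split by allele. These reads are part of the counts that chose the set, and the values below describe how the ratios divide, not further evidence for them. For Sema3a the 129 reads went from 78 in wild type to 517 in RepB, a scaled ratio of 3.94 (3.10 to 5.07), and the CAST reads from 30 to 311, a ratio of 6.16 (4.23 to 9.29). The 129 share was 72.2% (62.8% to 80.4%) in wild type and 62.4% (59.0% to 65.7%) in RepB, beside chromosome 5 medians of 44.6% and 40.5%. For Sema3c the 129 reads went from 3 to 45 (ratio 8.92, 2.86 to 44.9) and the CAST reads from 8 to 87 (ratio 6.47, 3.14 to 15.4). The wild-type library held 11 allelic reads of this gene, too few for a share. For Sema3b the ratios were 2.67 (1.84 to 3.97) on 129 and 2.35 (1.67 to 3.37) on CAST.

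For Sema3e, Nrp1 and, narrowly, Nrp2 the intervals of the allele ratios, which cover counting error only, lay apart. Sema3e had 55 and 49 reads from 129 (ratio 0.530, 0.353 to 0.793) but 27 and 2 from CAST (ratio 0.0440, 0.00507 to 0.175). Its 129 share went from 67.1% (55.8% to 77.1%) to 96.1% (86.5% to 99.5%), while the chromosome 5 median went the other way. For Nrp1 the 129 reads went from 88 to 60 (ratio 0.405, 0.287 to 0.569), while the CAST ratio was 1.08 (0.749 to 1.57), and the 129 share went from 64.7% (56.1% to 72.7%) to 40.8% (32.8% to 49.2%). The chromosome 8 median was 50.4% and 50.6%, so no such shift was seen over that chromosome. Sema3d had 50 and 18 CAST reads (ratio 0.214, 0.118 to 0.373) and 6 and 7 reads from 129 (ratio 0.694, 0.20 to 2.50), and these intervals overlapped. Nrp2 had ratios of 1.01 (0.843 to 1.22) on 129 and 0.708 (0.599 to 0.838) on CAST. Its 129 share went from 41.6% to 50.5%, and the chromosome 1 median moved alike, from 40.8% to 49.1%. That shift was therefore not particular to Nrp2. Sema3f had shares of 44.2% and 45.8% and allele ratios of 0.821 and 0.772. Alignment to a reference can favour the matching allele, and whether the MEF libraries came from one or several embryos is not given in the sources used here.

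Across the 8 libraries the family had no common profile. Pearson correlations of log2 CPM, given as a description over libraries that share cell type and genotype, were 0.10 between Sema3a and Sema3c and -0.94 between Sema3b and Sema3d. Sema3d was the gene least like Sema3b of 13676. Correlations were 0.93 between Sema3e and Nrp1, 0.86 between Sema3e and Nrp2, 0.88 between Nrp1 and Nrp2 and 0.81 between Sema3a and Sema3f, but many genes were more alike: Nrp1 was in place 799 for Sema3e, Nrp2 in place 3733 for Nrp1 and Sema3f in place 2381 for Sema3a. The genes most like Sema3a were Mrpl13, Impa1 and Arntl (each 0.99), those most like Sema3b were Edem2 (0.99), Pfkm (0.98) and Clip1 (0.97), and those most like Sema3c were Brix1 and Ndufb5 (each 0.98) and Dnttip2 (0.97). For Sema3d they were Dnajb5, Islr and Rhbdl3 (each 0.96), for Sema3e Gpnmb, Sh3tc2 and Srpx (0.99 or above), and for Sema3f Qsox1, Cyr61 and Loxl4 (0.997 or above). Nrp1 was most like Camk2a, Rtn2 and Gpr146 (0.999 or above), and Nrp2 most like Zfp318 (0.98), Celsr3 (0.97) and Macf1 (0.96).

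The wider pathway was read from lists of other semaphorins, plexins with co-receptors, intracellular signalling genes and VEGF genes. All counts of these lists are to be read against the shares over all genes, 9.12% up and 6.84% down in RepB+/-, 7.27% up and 5.49% down in RepB-/-, and 3.33% higher and 6.47% lower than 2-fold in RepB MEF. Of 14 other semaphorins, 0 rose in ES cells and Sema4d, the class 4 ligand of Plxnb1, fell in RepB+/- (-0.41, SE 0.11, edgeR adjusted p = 0.0235) and in RepB-/- (-0.55, SE 0.11, adjusted p = 0.00422). Sema4c, a membrane semaphorin, fell in RepB-/- only as far as the call goes (-0.45, SE 0.11, adjusted p = 0.0164). Dropping any one of the wild-type libraries or RepB+/- replicate 1 ended the RepB+/- call of Sema4d, and dropping wild-type replicate 2 ended its RepB-/- call. The Sema4c call ended on dropping wild-type replicate 2 or any one RepB-/- library. The list's medians were 0.08 and -0.14. In MEF 9 of the 14 reached 1 CPM and 0 were 2-fold higher, while Sema7a (55 and 11 reads, log2 ratio -2.81), a membrane-anchored semaphorin, and Sema6a (26 and 2 reads, -3.36; named after its values were seen) were 2-fold lower. That count of 2 was 5 without a minimum level and 0 when 5 CPM were required. Sema4g was highest at 0.59, ahead of Sema6c at -0.13, Sema5a was at -0.87, and Sema3g was at -0.52 (85 and 99 reads). With 3.33% of all genes 2-fold higher, 0 of 9 is near the background.

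Among 12 tested plexins and co-receptors, 2 rose and 0 fell in each ES genotype, where 9.12% (RepB+/-) and 7.27% (RepB-/-) of all genes rose. Plxnc1, the receptor of Sema7a, rose in RepB+/- (0.65, SE 0.20, edgeR adjusted p = 0.0404), and Plxna3, an X-linked receptor partner of the neuropilins, rose in RepB+/- (0.34, SE 0.11, adjusted p = 0.0484) and RepB-/- (0.44, SE 0.11, adjusted p = 0.015). Cntn2, an adhesion molecule of axons, rose in RepB-/- (1.33, SE 0.23, adjusted p = 0.00154). The Cntn2 call was kept in 6 of 6 fits that left out 1 library, the RepB-/- call of Plxna3 in 3, the Plxnc1 call in 2 and the RepB+/- call of Plxna3 in 0. In MEF, Plxna2, another partner of the neuropilins, was 2-fold lower (1245 and 466 reads, log2 ratio -2.16), as was the X-linked adhesion molecule L1cam (112 and 68 reads, -1.44). Plxnc1, with 8 and 30 reads, was the one 2-fold higher (1.03; named after its values were seen), and it drops out when 5 CPM are required. Plxnd1, the receptor of Sema3e, was at 0.25 and Plxnb2 at -0.08.

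Of 22 intracellular genes, 2 rose and 1 fell in RepB+/-, beside 9.12% and 6.84% of all genes. In RepB-/- 3 rose and 2 fell, beside 7.27% and 5.49% of all genes. With the replicate block, where calls over all genes also grew, 4 fell in RepB+/- and 5 in RepB-/-. Crmp1, a collapsin response mediator, rose in both (0.88, SE 0.16, edgeR adjusted p = 0.00165, and 0.61, SE 0.15, adjusted p = 0.0145), as did its relative Dpysl3 (0.39, adjusted p = 0.0168, and 0.44, adjusted p = 0.00943). Rras, a GTPase that plexins switch off, fell in both (-0.71, SE 0.10, adjusted p = 0.000343, and -0.47, SE 0.10, adjusted p = 0.00571), and Dpysl5 fell in RepB-/- (-0.84, SE 0.13, adjusted p = 0.000497). Calls for Crmp1 and Rras in RepB+/- and for Dpysl5 held in 6 of 6 fits without 1 library, those for Dpysl3 in 3 of 6 in each genotype, and those for Crmp1 and Rras in RepB-/- in 3 and 4 of 6. In MEF, 0 of 18 were 2-fold higher and 3 were lower, namely Mical2, an actin-oxidising enzyme (-1.76), Farp2, a GTPase activator bound to plexins (-1.35), and Dpysl3 (-1.0; named after its values were seen). The highest were Rap1a at 0.62 and Rnd1 at 0.54.

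The VEGF list, whose proteins share the neuropilins, had 1 gene up and 2 down of 8 in each ES genotype, where 6.84% (RepB+/-) and 5.49% (RepB-/-) of all genes fell. Figf, which encodes the X-linked growth factor VEGF-D, rose by 1.70 (SE 0.19, edgeR adjusted p = 4.72e-05) and 1.80 (SE 0.18, adjusted p = 2.52e-05). Kdr, the main VEGF receptor of endothelium, fell by 0.83 (adjusted p = 0.0011) and by 1.02 (adjusted p = 0.000201), and Flt1, the other such receptor, fell by 0.52 (adjusted p = 0.00707) and by 0.65 (adjusted p = 0.00148). The Flt1 call in RepB+/- was lost without wild-type replicate 2. In MEF 0 of 7 passed 2-fold either way, from Flt4 at -0.93 and Vegfb at -0.70 to Flt1 at 0.58 and Pgf at 0.78. Between RepB-/- and RepB+/- ES cells edgeR called 0 genes in all 4 lists, beside 0.0198% of all genes up and 0.066% down. In some alternatives 1 gene of a list was called down: in the VEGF list without a filter and with the replicate block, in the intracellular list with the replicate block, and in the other semaphorins and the plexins without RepB+/- replicate 1.

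Between wild-type MEF and wild-type ES cells, with the spread for the lone MEF library taken from the ES pairs, edgeR called 27.8% of all genes higher and 37% lower, and groups did not overlap in 93.2%. It called 2 other semaphorins higher and 8 lower of 14, 5 plexins and co-receptors higher and 6 lower of 13, 9 intracellular genes higher and 7 lower of 22, and 2 VEGF genes higher and 5 lower of 8. The median log2 differences were -1.18, -1.11, 0.06 and -1.62, beside -0.22 over all genes.

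**Figure D5:**
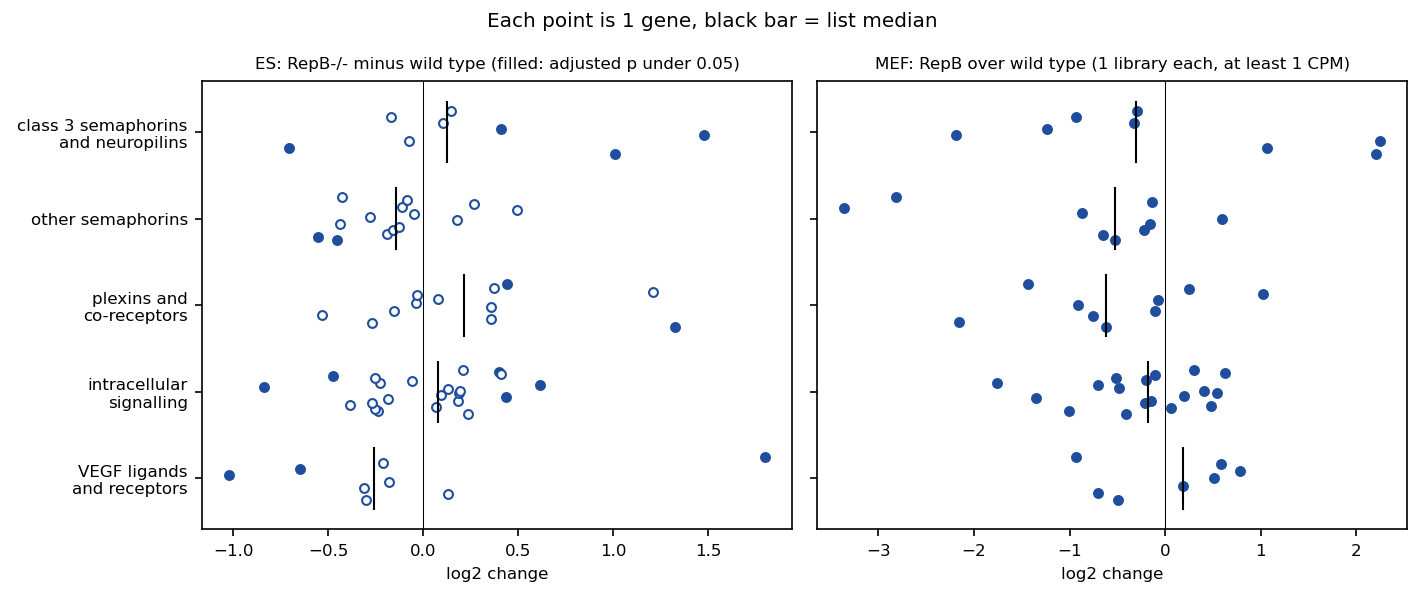
Log2 differences of the genes in each list (horizontal axes; each point is 1 gene and black bars are list medians) for RepB-/- against wild-type ES cells, filled where the adjusted p was under 0.05, and for RepB over wild-type MEF, where points are ratios of 1 library each without a test. The 8 class 3 and neuropilin genes spread from -2.19 to 2.25 in MEF, the contrast that chose them. The other lists reach up to 1.03 and down to -3.36 (Sema6a) there. The higher top of the chosen set follows from its choice and is no comparison of families.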

How the data were processed

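The authors deposited 3 tables of whole-number read counts per gene, for all reads and for reads given to the 129 and CAST alleles, in the featureCounts layout with mm9 positions, per the file headers. Per the submitters' processing notes, the tools included Novoalign, TopHat, SAMtools and featureCounts; versions, strand setting and handling of multiply mapped reads are not given in the sources used here. The columns headed mus and cas were read as 129 and CAST. Totals per library are given in the text.

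The 6 ES libraries were fitted with edgeR 4.0.16 in R 4.3.3 (filterByExpr, minimum count 10 and minimum total 15; TMM; quasi-likelihood F-test; genotype the only term), and all 8 libraries likewise in 5 groups to compare MEF with ES cells, a comparison tested here for the lists and given for the members as values only, since it shares a library with the ratio that chose them. Genes were called at an adjusted p of 0.05 (Benjamini-Hochberg, all tested genes). The common coefficient of variation was 9.49% with 3 residual degrees of freedom. The fit was tested on simulated counts. MEF ratios used a prior count of 2 and genes averaging 1 CPM, without a test. Allele shares needed 20 reads. Neighbours lay within 1 Mb.

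The members, lists and tests were chosen with earlier results of these data known. Named genes were all members, per list up to 2 called genes per direction with the lowest adjusted p, in MEF the 2 highest and 2 lowest ratios with at least 50 reads (also among neighbours), and the 3 genes most correlated with each member over the 8 libraries; exceptions are named as such. Alternatives were DESeq2 1.42.0 with its size factors, no filter, a replicate block, other prior counts and minimums, and each library left out. Protein sequences were not used here.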

Additional observations from a re-analysis of the deposited data

Results flagged for a closer look

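Sema3b and Sema3d went opposite ways in the 2 cell types. Every RepB ES library had less Sema3b than every wild-type ES library, while RepB MEF had more, with a log2 ratio of 1.07. Sema3d was higher in every RepB ES library than in every wild-type one and lower in RepB MEF, with a log2 ratio of -2.19. The difference between ES cells and MEF was not tested, and each MEF genotype has 1 library. The MEF ratio is also the contrast that chose the set. How many of all genes show such a pattern was not counted. In ES cells, groups did not overlap with wild type for 58.7% of all genes in RepB+/- and 59.6% in RepB-/-.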

How the results depend on the processing

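The ES calls of Sema3a and Sema3d in both genotypes and of Sema3b in RepB+/- held their direction and threshold in all alternatives run (other size factors, DESeq2, no filter, replicate block, only the groups compared, each library left out). With 1 library left out, members called up numbered 2 in RepB+/- and 2 to 3 in RepB-/-, and members called down 1 in RepB+/- and 0 to 1 in RepB-/-, where Sema3b was lost without wild-type replicate 2. Some changes that passed no test turned sign with a library left out. In RepB+/-, Sema3c ran from -0.11 to 0.13 and Sema3f from -0.18 to 0.063, and in RepB-/- Nrp2 ran from -0.050 to 0.32. For RepB-/- against RepB+/-, Sema3c ran from -0.21 to 0.039, Nrp1 from -0.16 to 0.21 and Nrp2 from -0.33 to 0.040. The MEF counts of 3 members higher and 2 lower than 2-fold were the same under each setting run; without a minimum level, 5 other semaphorins and 1 VEGF gene were 2-fold lower, and at 5 CPM 0 other semaphorins were.

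Over all genes, RepB+/- had 1382 calls up and 1036 down, but 665 and 503 on dropping wild-type replicate 1, 519 and 271 on dropping wild-type replicate 2 and 942 and 641 on dropping RepB+/- replicate 1. RepB-/- had 1101 and 832, but 542 and 448 or 440 and 247 with wild-type replicate 1 or 2 dropped, and 605 and 387 or 498 and 339 with RepB-/- replicate 1 or 2 dropped. The background shares thus move with the libraries used. Without a filter, RepB-/- against RepB+/- gave 50 genes up and 74 down, DESeq2 gave 13 and 17, and the main test 3 and 10.

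The ES counts were deposited by replicate number, with all ES genotypes of a number together. The main fit did not take these numbers as pairing. Deviations of same-numbered libraries correlated at 0.108, 0.0696 and 0.186. These weak positive values do not show that the libraries were unpaired. With the replicate block, Nrp2 in RepB+/- (0.28) had an adjusted p of 0.0304, so members called up numbered 3, and calls over all genes were 1944 up and 1675 down in RepB+/- and 1667 and 1493 in RepB-/-.

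Depth limits some allele values: Sema3c in wild-type MEF had 11 allelic reads, and Sema3d in wild-type ES replicate 2 had 14.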
